A study of Caenorhabditis elegans with 6 samples.

Results

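The insulin signalling pathway of Caenorhabditis elegans was followed through 9 genes, from the receptor gene daf-2 over its kinases and phosphatase to the transcription factor genes daf-16 and skn-1. The members were daf-2, age-1, pdk-1, akt-1, akt-2, sgk-1, daf-18, daf-16 and skn-1, taken with every probe set whose single platform gene symbol was one of these names. All 9 had at least 1 probe set, and together they had 25 of the 22548 probe sets tested, which name 17118 genes in all. Expression was measured in 3 samples labelled as an ung-1 mutant and 3 of the wild type strain N2, on 1 Affymetrix array each. The product of ung-1 is the worm's uracil-DNA glycosylase, the repair enzyme that takes uracil out of DNA. No allele, stage, culture condition, tissue or treatment is named in the labels. An RNAi origin appears in the design text alone. The labels call the replicates biological but do not say how the cultures were separated, so p-values measure only the spread between these samples.

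In this pathway insulin-like peptides bind the receptor DAF-2, which activates the phosphatidylinositol kinase AGE-1. The lipid AGE-1 makes recruits the kinases PDK-1, AKT-1 and AKT-2, and PDK-1 activates the AKT kinases and the kinase SGK-1. The phosphatase DAF-18 removes that lipid again. The kinases phosphorylate DAF-16, a FOXO factor, and SKN-1, an Nrf-type factor, and so keep both out of the nucleus. The pathway is known for its control of dauer entry, lifespan, fat storage and stress resistance in the worm. It is run mainly by phosphorylation and by where its proteins lie in the cell, which an array of transcripts does not measure.

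Each value below is the intensity of a probe set (arbitrary units), listed for replicates 1, 2 and 3 in that order or as mean ± SD (n = 3 per group). A positive log2 fold change of log2(intensity + 16) means the mutant was higher, and its standard error is that of limma. The array medians lay between 152.82 and 167.85. On probe set 187853_s_at of ung-1 the mutant had 52.6 ± 4.30 and N2 had 262 ± 30.6, with a log2 fold change of -2.01 (SE 0.15, limma adjusted p = 0.0765). That adjusted p missed the threshold of 0.05, though the groups did not overlap. Several arrays stood apart in lists of tissue markers, each measured relative to its genes' own means. Mutant replicate 3 had medians of -0.63 for 13 germline and oocyte genes and -0.85 for 28 sperm genes, and N2 replicate 1 had -0.78 for the sperm genes. Mutant replicate 2 stood at 0.79 for 7 intestine genes, where the other 5 arrays lay between -0.23 and 0.095, and 6 of these 7 genes were positive in the mutant (median 0.32, and 0.061 without that array). In RNA of mixed cells, fewer cells of a type and less RNA per cell cannot be told apart. A sign of RNA integrity, the GAPDH control's 3' over 5' ratio, was 8.77, 5.01 and 6.08 in the mutant and 11.8, 8.3 and 10.64 in N2. Its part in the results was not tested.

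The comparison of mutant and N2 asked whether transcripts of the insulin pathway differed in the ung-1 mutant. No member passed the threshold. Of the 25 probe sets, 0 reached a limma adjusted p of 0.05, against 0% of all probe sets, and adjusted p was 0.999 for each of them. At an unadjusted limma p of 0.05 the count was again 0 of 25, against 1.93% of all probe sets, and the smallest unadjusted p was 0.112. The log2 fold changes of the 25 lay between -0.28 and 0.23, with 14 positive and 11 negative. Their median was 0.067, where that of all probe sets was -0.027.

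Confidence intervals give the size of change in intensity that these arrays allow. For all 25 probe sets the 95% confidence interval of the fold change lay within 2-fold of no change in either direction, against 82.7% of all probe sets. For 15 of the 25 it lay within 1.5-fold, against 41.2% of all. The widest intervals belonged to the probe set 188215_at of daf-18, from -0.71 to 0.94, to sgk-1, from -0.61 to 0.76, and to both akt-2 probe sets, from -0.90 to 0.40 and from -0.46 to 0.88. With an offset of 1 in place of 16, which shrinks dim probe sets less, the counts were 25 and 11. Of the 25 probe sets, 8 had a mean below the 25th percentile of all (80.8), among them every daf-2 probe set. On such dim probe sets a narrow interval bounds the change in intensity and need not bound that of the transcript. Leaving out 1 array at a time gave 22 to 24 probe sets within 2-fold, and the count within 1.5-fold dropped to 6 without N2 replicate 1 or N2 replicate 3. Leaving out mutant replicate 3 and N2 replicate 1 together gave 20 and 3.

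**Figure D1:**
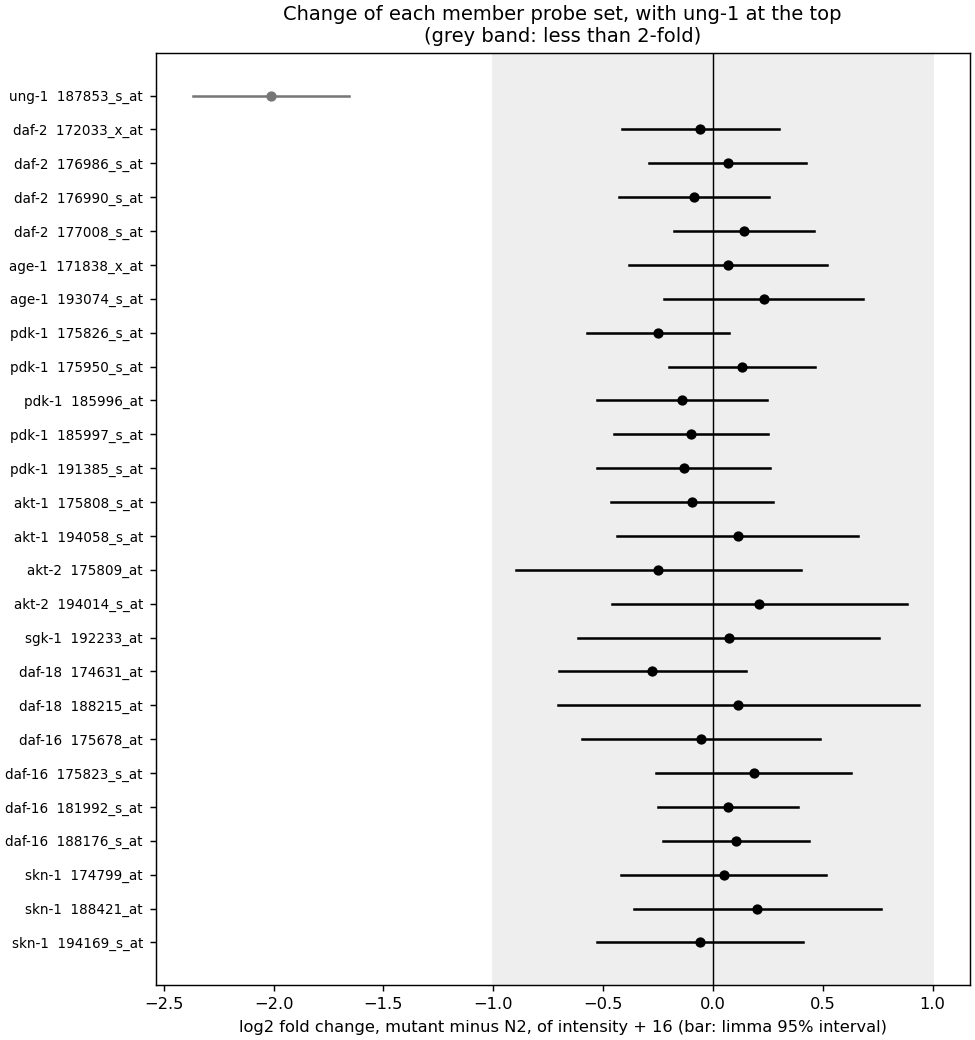
Log2 fold change (mutant minus N2, of intensity + 16) of the 25 member probe sets and of ung-1, with the limma 95% confidence interval as a bar; the grey band marks less than 2-fold. All 25 member intervals cross 0 and stay inside the band, while ung-1 lies at -2.01.

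The groups did not overlap in 2 of the 25 probe sets, 1 with the mutant higher and 1 with the mutant lower. This share of 8.0% was near the 6.69% of all probe sets with groups apart, of which 2.31% had the mutant higher and 4.38% the mutant lower, so it is no result about the pathway. The 2 probe sets belong to daf-2 and pdk-1 and are given first among the values below.

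The receptor gene daf-2 had 4 probe sets, all dim, with means below the 25th percentile of all probe sets (80.8). The probe set 177008_s_at read 50.58, 46.48 and 45.26 in the mutant and 43.74, 38.07 and 42.76 in N2. Each mutant array lay above each N2 array, by a narrow margin. This gave 0.14 on the log2 scale (SE 0.13, 95% confidence interval -0.18 to 0.46). A two-sided exact permutation test gave p = 0.1, and no smaller value is possible with 3 arrays per group. The other probe sets overlapped between the groups. The probe set 172033_x_at gave 71.1 ± 8.57 and 74.6 ± 7.65 (log2 fold change -0.06), and 176990_s_at gave 45.7 ± 5.85 and 49.3 ± 3.17 (-0.09). On 176986_s_at the mutant read 42.21, 43.45 and 40.61 against 44.03, 31.87 and 43.30 in N2 (0.07), where N2 replicate 2 alone was low and the value turned to -0.04 without it. The 4 probe sets of the receptor thus split evenly in sign, and 172033_x_at turned to 0.01 without N2 replicate 1.

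The lipid kinase gene age-1 had 2 probe sets. On 193074_s_at the mutant read 450.21, 398.87 and 307.59 and N2 read 309.01, 289.04 and 374.96. Mutant replicates 1 and 2 stood above every N2 array and mutant replicate 3 lay among them. A log2 fold change of 0.23 (SE 0.19) was the highest among the 25 probe sets, with an exact permutation p of 0.3. With mutant replicate 1 left out it was 0.11, and with mutant replicate 3 left out it was 0.38. The probe set 171838_x_at read 397.79, 430.81 and 284.04 in the mutant and 325.28, 344.59 and 374.99 in N2 (0.07, SE 0.19). Without mutant replicate 2 it turned to -0.05. Both age-1 probe sets had mutant replicate 3 below the other mutant arrays, and they correlated at 0.79 over the 6 arrays, the highest value between probe sets of 1 member.

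The phosphatase gene daf-18 opposes age-1. Its probe set 174631_at read 7463.17, 5797.14 and 5211.72 in the mutant and 6908.05, 7236.82 and 8029.00 in N2. Only mutant replicate 1 reached the N2 range. Its log2 fold change of -0.28 (SE 0.18, 95% confidence interval -0.70 to 0.15) was the lowest of the 25, with an exact permutation p of 0.3. Leaving out mutant replicate 3 gave -0.16 and leaving out mutant replicate 1 gave -0.42. Its unadjusted limma p was 0.167 with all arrays. On the second probe set, 188215_at, the mutant read 1313.57, 1845.52 and 744.63 and N2 read 954.73, 1006.40 and 1473.99. Both the highest and the lowest of the 6 arrays were mutant ones there, 2.48-fold apart. The difference was 0.12 on the log2 scale (SE 0.35), and it turned to -0.18 without mutant replicate 2, so the 2 probe sets of daf-18 gave no common direction.

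The kinase gene pdk-1 encodes the kinase that activates the AKT and SGK proteins. Of its 5 probe sets, 175826_s_at read 134.65, 140.64 and 145.81 in the mutant and 185.14, 163.18 and 161.62 in N2. All mutant arrays lay below all N2 arrays, with a ratio of mutant to N2 means of 0.826. Limma gave a log2 fold change of -0.25 (SE 0.14, 95% confidence interval -0.57 to 0.07) and the exact permutation test p = 0.1, and the change stayed between -0.28 and -0.19 as single arrays were left out. Its unadjusted p of 0.112 was the smallest of the 25. The other 4 overlapped between the groups, with log2 fold changes of -0.14 on 185996_at, -0.10 on 185997_s_at, -0.13 on 191385_s_at and 0.13 on 175950_s_at. Thus 4 of 5 were negative, and 175950_s_at, with 49.3 ± 2.01 in the mutant and 43.7 ± 5.44 in N2, was the exception. That probe set and the negative 185996_at were both dim, with means of 46.5 and 59.9 over the arrays.

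The AKT kinase genes akt-1 and akt-2 encode the proteins that phosphorylate DAF-16. On 175808_s_at of akt-1 the mutant read 3897.64, 3446.07 and 3035.34 and N2 read 3623.40, 3974.69 and 3454.43. Only mutant replicate 1 lay within the N2 range, and the exact permutation p was 0.4, with a log2 fold change of -0.10 (SE 0.16, 95% confidence interval -0.47 to 0.28). This became -0.01 when mutant replicate 3 was left out and -0.18 when mutant replicate 1 was. The second akt-1 probe set, 194058_s_at, read 831.32, 1243.08 and 677.36 in the mutant against 810.06, 810.00 and 842.31 in N2. The N2 arrays were close together and mutant replicate 2 stood high, and the log2 fold change of 0.11 (SE 0.23) became -0.13 without that array.

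The akt-2 probe sets varied more. On 175809_at the mutant read 528.75, 812.11 and 1040.59 and N2 read 1083.27, 936.82 and 746.18. Mutant replicate 1 was low, and the log2 fold change of -0.25 (SE 0.27) became 0.01 without it. On 194014_s_at the mutant read 199.96, 442.47 and 302.87 and N2 read 294.23, 224.08 and 256.95. Here mutant replicate 1 was again the lowest array and mutant replicate 2 the highest, and the log2 fold change of 0.21 (SE 0.28) became -0.06 without mutant replicate 2.

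The gene sgk-1 encodes the serum- and glucocorticoid-inducible kinase homologue, and its single probe set 192233_at read 641.15, 1329.95 and 727.35 in the mutant and 865.74, 895.63 and 687.77 in N2. Mutant replicate 2 stood above all other arrays and the remaining mutant arrays lay among or below N2. Mutant minus N2 came to 0.07 (SE 0.29, 95% confidence interval -0.61 to 0.76) on the log2 scale. It became -0.24 without mutant replicate 2 and -0.04 without N2 replicate 3.

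The FOXO factor gene daf-16 had 4 probe sets, and all of them overlapped between the groups. The probe set 175823_s_at read 485.52, 691.02 and 695.64 in the mutant and 541.66, 496.39 and 585.31 in N2. Mutant replicates 2 and 3 exceeded every N2 array and mutant replicate 1 was the lowest of the 6. On the log2 scale the change was 0.18 (SE 0.19, 95% confidence interval -0.26 to 0.63), with an exact permutation p of 0.4. It ran from 0.10 to 0.35 as single arrays were left out, highest without mutant replicate 1. On 175678_at the mutant read 290.05, 495.80 and 462.83 and N2 read 474.92, 416.43 and 379.42, again with mutant replicate 1 lowest. Its log2 fold change of -0.05 (SE 0.23) became 0.18 without mutant replicate 1 and 0.03 without N2 replicate 1. The remaining probe sets gave 181 ± 16.8 and 167 ± 5.45 on 188176_s_at (0.10, SE 0.14) and 51.6 ± 4.34 and 48.4 ± 2.20 on 181992_s_at (0.07, SE 0.13).

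The gene skn-1 encodes the factor that switches on glutathione and other detoxification genes and, in the early embryo, endoderm fate. On 174799_at the mutant read 1342.66, 1531.04 and 1590.58 and N2 read 1507.20, 1124.14 and 1737.82. The 3 mutant arrays lay within the N2 range, and N2 replicate 2 was the lowest. Here limma gave 0.05 (SE 0.20, 95% confidence interval -0.42 to 0.52), and -0.12 without N2 replicate 2. On 194169_s_at the groups gave 1004 ± 107.0 and 1057 ± 212.8 (-0.06, SE 0.20). This value was 0.03 without mutant replicate 2, and equally without N2 replicate 1 or N2 replicate 3. On the dim 188421_at the mutant read 59.17, 87.13 and 59.31 and N2 read 69.32, 38.05 and 67.04 (0.20, SE 0.24), which became -0.01 without N2 replicate 2. N2 replicate 2 was thus the lowest array on all 3 skn-1 probe sets.

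**Figure D2:**
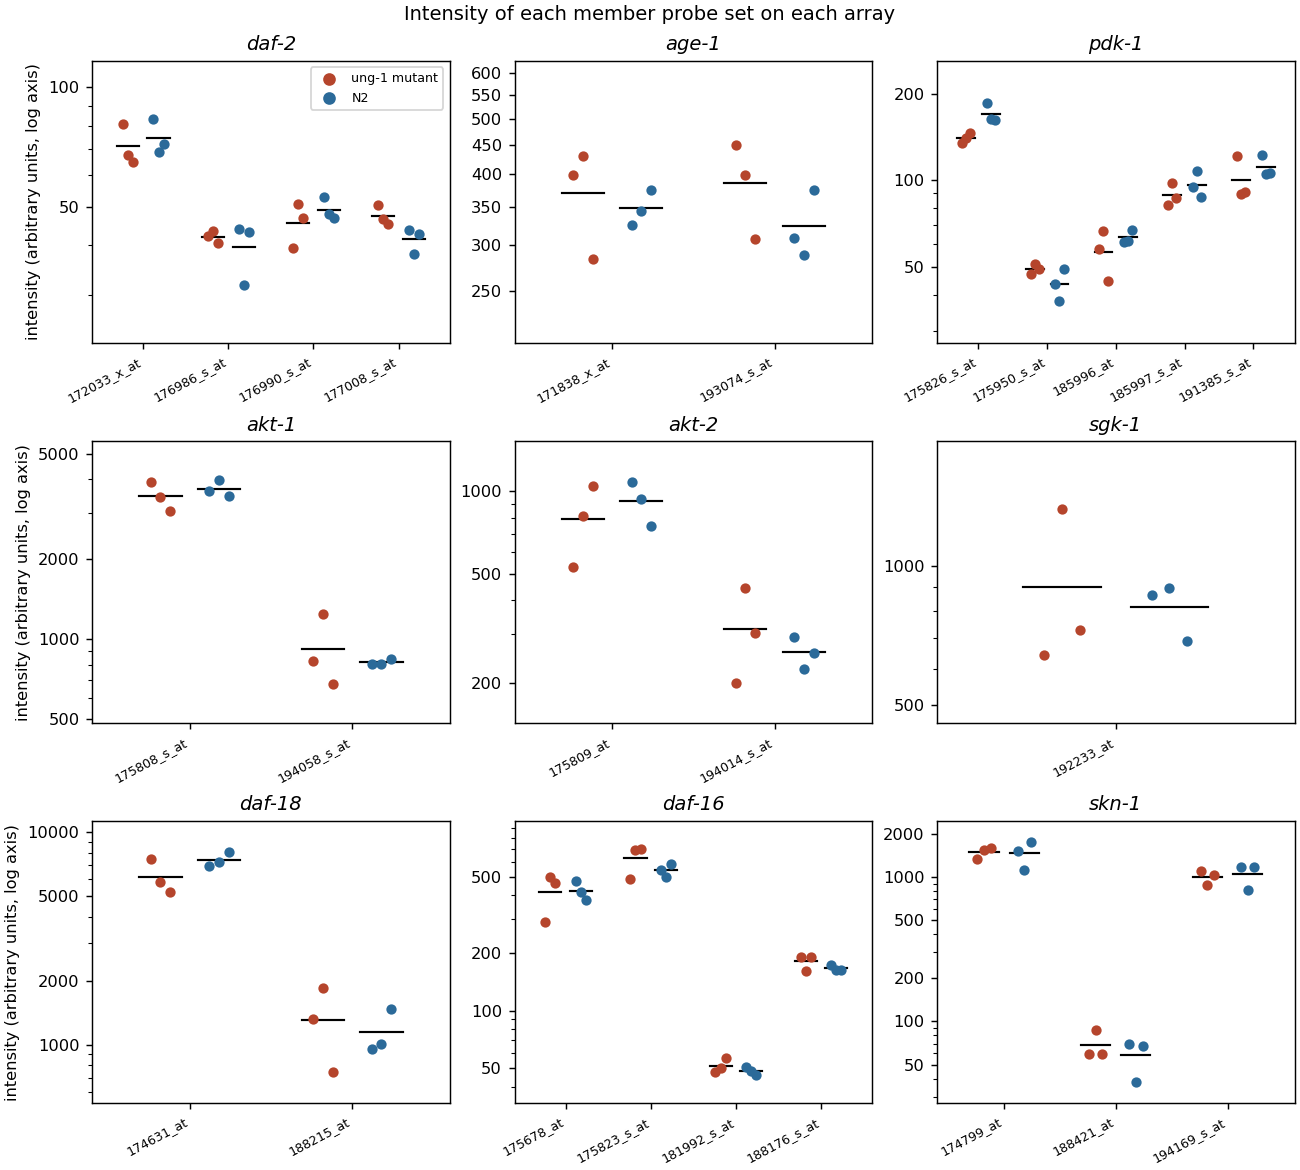
Intensity (arbitrary units, log axis) of every member probe set in the ung-1 mutant (red) and N2 (blue), 3 arrays each, drawn from replicate 1 on the left to replicate 3 on the right, with a bar at each group mean. The groups overlap in 23 of the 25 probe sets; the exceptions are 177008_s_at of daf-2 and 175826_s_at of pdk-1.

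In several members 1 array stood apart from the rest, without reaching 2-fold beyond the next. Mutant replicate 2 was the highest array for 8 of the 25 probe sets (32.0%), where it was highest for 15.5% of all probe sets. Relative to their own means it stood 0.67 higher for sgk-1, 0.65 for daf-18 on 188215_at, 0.64 for akt-2 on 194014_s_at and 0.53 for akt-1 on 194058_s_at, on the log2 scale. The intestine markers, at 0.79, and the sperm markers, at 0.68 with 23 of 28 genes highest there, had their highest medians on the same array, and their part in these values was not tested. Mutant replicate 1 was the lowest array for 8 of the 25 (32.0%, against 14.7% of all), led by akt-2 on 175809_at (-0.64) and daf-16 on 175678_at (-0.49). On that array the neuron markers stood at -0.68 and the muscle markers at -0.54, the lowest of the 6 arrays in both lists, and their part was not tested either. N2 replicate 1 was the highest for 7 of the 25, against 9.87% of all probe sets, and the lowest for none of the 25, against 10.9% of all. The muscle markers, at 0.50, and the neuron markers, at 0.49, had their highest medians on that array, and their part was not tested. Probe sets of 1 gene share a target, so these counts are not over independent genes.

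**Figure D3:**
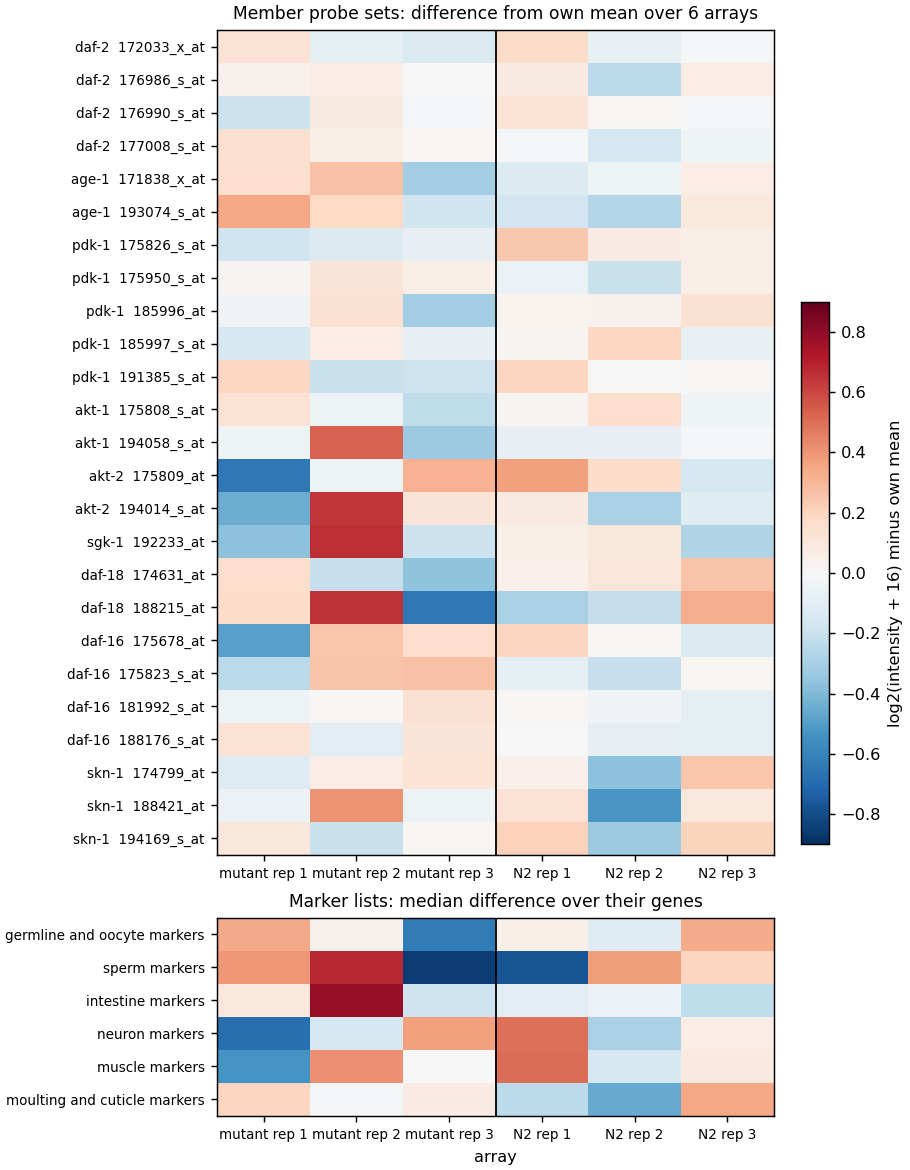
Upper panel, log2(intensity + 16) of each member probe set minus its own mean over the 6 arrays; lower panel, the median of the same difference over the genes of 6 marker lists. Columns are arrays, mutant left and N2 right of the line, and sgk-1 and the intestine markers are highest on mutant replicate 2.

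Probe sets of the same member often disagreed. Among the 29 pairs of probe sets that name the same gene, 16 had opposite signs of fold change. Their correlations over the 6 arrays ran from -0.64, between 2 pdk-1 probe sets (175950_s_at and 185997_s_at), to 0.79 for age-1, with a median of 0.33. Of the 25 probe sets, 17 have identifiers ending in _s_at or _x_at, which can match several transcripts, and 8 had a mean below the 25th percentile of all probe sets.

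By likeness over the 6 arrays, a description that rests on 6 points, the probe set 175823_s_at of daf-16 was closest to acdh-7 (Pearson r = 0.994), C16B8.4 (0.990) and melo-1 (0.988). The probe set 174799_at of skn-1 was closest to unc-52 (0.993), C15H9.5 (0.989) and W03F11.5 (0.980). For 172033_x_at of daf-2 they were Y45G5AM.9 (0.988), fbxb-119 (0.987) and myo-1 (0.977). That daf-2 probe set was dim, with a mean of 72.8, below the 25th percentile (80.8) asked of the candidates. It spanned only 1.28-fold over the 6 arrays and correlated at -0.18 to 0.38 with the other daf-2 probe sets. Among 15854 to 15857 candidates, r exceeded 0.9 for 121 probe sets with daf-16, 118 with skn-1 and 40 with daf-2.

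Around the 9 members, 7 lists of pathway genes were read from the same fit through the brightest probe set of each gene. No gene of any list passed a limma adjusted p of 0.05, and adjusted p was 0.999 for each gene named here. Among all probe sets 44.5% had a positive log2 fold change, the share to set beside the sign counts of the lists. The insulin-like ligands were negative in 6 of 6 measured genes, with a median log2 fold change of -0.11, which became 0.038 without N2 replicate 2. The ligand gene ins-1, known as an antagonist of DAF-2, read 106.44, 142.55 and 189.36 in the mutant and 257.21, 289.89 and 164.86 in N2 (-0.64, SE 0.27). Only N2 replicate 3 overlapped with the mutant. The agonist gene daf-28 gave 86.2 ± 8.62 and 87.9 ± 21.4 (-0.0075, SE 0.19), and its sign depended on single arrays (0.06 without mutant replicate 3, 0.15 without N2 replicate 2) and on the scaling (0.06 with quantile normalization, 0.04 with median centring).

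Adaptors and regulators of the kinases had 7 positive and 10 negative of 17 measured, with a median of -0.10 that became 0.005 without N2 replicate 1. The gene of the AGE-1 adaptor, aap-1, had 594 ± 146 in mutant and 552 ± 51.9 in wild type worms (0.08, SE 0.20), and -0.10 without mutant replicate 2. The insulin receptor substrate homologue ist-1 gave 255 ± 94.9 and 252 ± 73.8 (-0.02, SE 0.32). Without mutant replicate 1 it gave 0.29, and without N2 replicate 1 it gave 0.20. A second ist-1 probe set, 182353_at, gave 0.14 (SE 0.275). The gene with the smallest p in this list was the dim eak-3, which acts beside AKT-1 on DAF-16, at 40.6 ± 3.17 and 53.7 ± 6.36 (-0.30, SE 0.14).

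Nuclear partners and modifiers of DAF-16 had 7 positive and 4 negative of 11 measured (12 listed), with a median of 0.056. Over all probe sets, 1.93% had an unadjusted limma p under 0.05, and 4.38% had groups apart with the mutant lower. The gene hcf-1, whose protein binds DAF-16 and holds back its target genes, was the only one of the 7 lists with an unadjusted p under 0.05 (0.0174, limma). It read 2705.12, 2293.92 and 1630.04 in the mutant and 3635.43, 3128.90 and 3543.43 in N2 on 174198_at. All mutant arrays lay below all N2 arrays (log2 fold change -0.66, SE 0.21, exact permutation p = 0.1), and the change ran from -0.82 to -0.46 as single arrays were left out. Its second probe set, 182800_s_at, gave means of 310.8 and 317 (-0.03, SE 0.27) and the difference between the probe sets was not tested. Regulators of SKN-1 had 7 positive and 1 negative of 8 measured (9 listed), with a median of 0.14. Among them wdr-23, which targets SKN-1 for degradation, read 620.15, 1253.13 and 1151.03 in the mutant and 698.80, 739.61 and 756.43 in N2 (0.39, SE 0.27). Mutant replicate 1 was below N2 and the other mutant arrays above it, with 0.70 without that array and 0.21 without mutant replicate 2.

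Genes known to be raised by DAF-16 had 10 positive and 13 negative of 23 measured (27 listed), with a median of -0.12. This median was 0.075 without N2 replicate 2 and 0.13 without mutant replicate 1. The superoxide dismutase gene sod-3, a standard reporter of DAF-16 activity, read 609.71, 1661.66 and 3612.38 in the mutant and 924.27, 1397.39 and 1560.31 in N2. Mutant replicates 1 and 3 were the lowest and the highest of the 6 arrays. With all arrays the log2 difference was 0.29 (SE 0.60, 95% confidence interval -1.13 to 1.71). It was -0.32 without mutant replicate 3, 0.95 without mutant replicate 1 and 0.07 without N2 replicate 1. The small heat shock gene hsp-16.2 had the smallest p of this list, with 52.09, 90.64 and 113.72 against 110.20, 486.83 and 113.37 (-1.04, SE 0.56, and -0.38 without N2 replicate 2).

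That high N2 array was shared by several genes of the list, a pattern noticed after the values were seen. N2 replicate 2 was at least 2-fold above every other array for 7 of the 23 genes (30.4%), against 1.19% of all probe sets. These were mtl-1, sip-1, hsp-16.2, dod-3, dod-6, lys-7 and scl-20. The same held for 1 of 12 genes lowered by DAF-16 (8.33%), which is also 1 of the 6 ligands, and for 0 of 16 raised by SKN-1. List medians on this array were 0.56 for raised genes, 0.18 for lowered genes and 0.385 for ligands, each the highest of the 6 arrays. They were 0.041 for genes raised by SKN-1, and -0.144, -0.274 and -0.171 for adaptors, DAF-16 partners and SKN-1 regulators. The lysozyme gene lys-7 read 771.87, 988.58 and 939.35 in the mutant and 564.07, 5963.63 and 610.56 in N2. The metallothionein gene mtl-1 read 1431.52, 2247.91 and 1607.14 in the mutant and 2206.46, 7034.51 and 1242.22 in N2. The secreted protein gene scl-20 read 143.99, 76.63 and 76.03 against 93.56, 1026.85 and 124.35. In each of these N2 replicate 2 alone stood high, above both the mutant and the other N2 arrays. The aquaporin gene aqp-1 ran the other way, at 138.86 on N2 replicate 2 and between 1615.80 and 6780.53 on the other 5 arrays. The daf-16 probe sets did not share the pattern, and none of the 25 member probe sets was 2-fold above or below every other array on any array. Mutant replicate 3 stood at least 2-fold above the others for 3 of the 23 (13%), sod-3, sod-5 and dao-3, against 0.922% of all probe sets. It did so as well for 2 of 16 genes raised by SKN-1 (12.5%) and 1 of 12 lowered by DAF-16 (8.33%). The labels give no reason for either array to stand apart. Among the marker lists, N2 replicate 2 had the lowest moulting and cuticle median of the 6 arrays, at -0.46, and a sperm median of 0.37. Its germline and oocyte, intestine, neuron and muscle medians were -0.11, -0.052, -0.29 and -0.15, and the part of these lists was not tested.

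**Figure D4:**
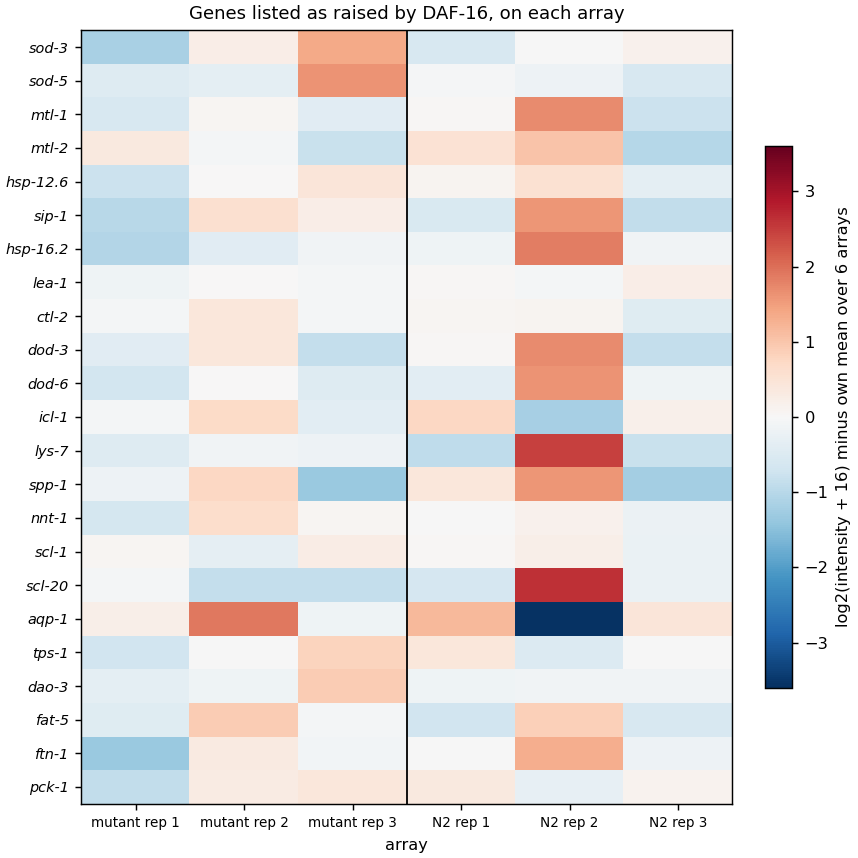
Log2(intensity + 16) minus the gene's own mean over the 6 arrays, for the 23 measured genes listed as raised by DAF-16; columns are arrays, mutant left and N2 right of the line. N2 replicate 2 is high for lys-7, scl-20, mtl-1 and others and low for aqp-1, and mutant replicate 3 is high for sod-3 and sod-5.

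Genes known to be lowered by DAF-16 had 4 positive and 8 negative of 12 measured (13 listed), with a median of -0.16 that was -0.013 without mutant replicate 3 and -0.32 without N2 replicate 1. The one with the smallest p was the nuclease gene nuc-1, at 3408.32, 4295.03 and 2415.58 in the mutant and 5799.35, 10130.66 and 3030.91 in N2 (-0.77, SE 0.44). It overlapped between the groups and stood at -0.35 without N2 replicate 2 and -1.22 without N2 replicate 3.

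Genes known to be raised by SKN-1 had 10 positive and 6 negative of 16 measured (17 listed), with a median of 0.041 that turned to -0.030 without mutant replicate 1. The glutathione synthesis gene gcs-1, a direct SKN-1 target, gave 1994 ± 221 and 2021 ± 259.9 on 173813_at (-0.02, SE 0.17). Its sign turned with median centring (0.03) and without mutant replicate 3 or N2 replicate 3 (0.07 each), and 191226_s_at gave 0.25 (SE 0.16). The glutathione S-transferase gene gst-4 read 172.49, 150.12 and 136.38 in the mutant and 139.36, 91.49 and 151.31 in N2 (0.26, SE 0.21; 0.06 without N2 replicate 2). The nitrilase gene nit-1 had the smallest p, with 374 ± 35.6 and 499 ± 78.1 (-0.39, SE 0.17), and its groups overlapped.

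**Figure D5:**
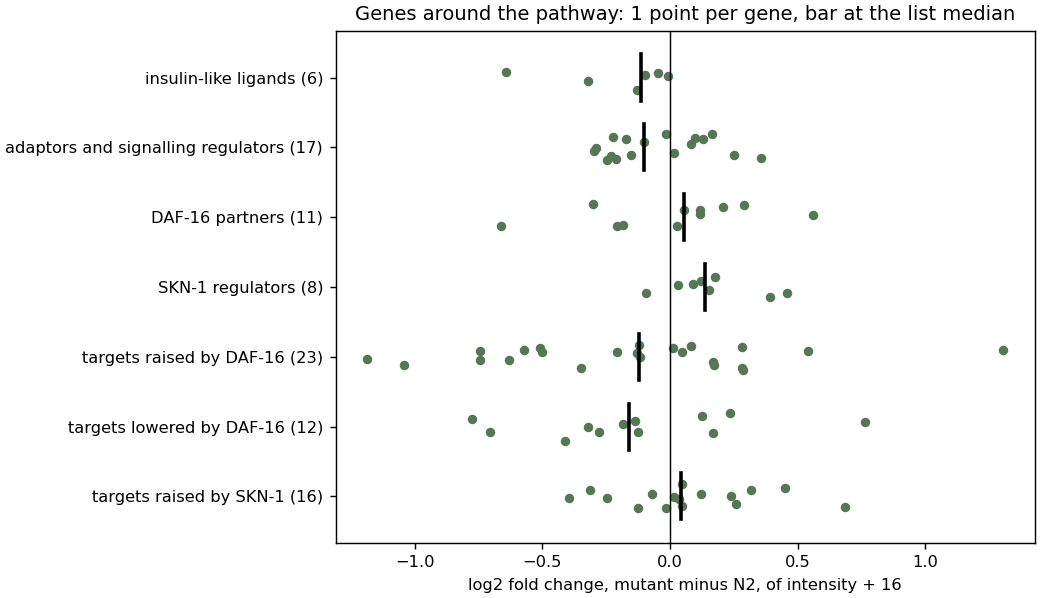
Log2 fold change (mutant minus N2, of intensity + 16) of each measured gene in 7 lists around the pathway, 1 point per gene, with the number of genes in brackets and a bar at the list median. The medians lie between -0.16 and 0.14, and no gene passed the threshold.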

How the data were processed

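Total RNA was extracted with Trizol, biotin labelled and hybridised to Affymetrix arrays, per the labels' protocols. The deposited intensity values are linear, 1 per probe set and array. How probes were summarised, background-corrected and scaled is not stated by the labels or the table. Of the cells, 1361 (1.003%) held spreadsheet dates and were turned back into the small numbers they stand for, from 1.17 to 31.12. None lay in a member probe set or in a listed gene's probe set used here. The 77 control probe sets were left out. Of 22548 probe sets, 20766 carried 1 symbol. Symbols came from the platform annotation, checked against RefSeq genes of WBcel235.

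Log2(intensity + 16) was fitted with limma 3.58.1 in R 4.3.3 (lmFit, eBayes, two-sided), adjusted by Benjamini-Hochberg over all 22548 probe sets, with no further normalization. Single values also had an exact permutation test over 20 regroupings. The fit was tested on simulated data. The members and lists were chosen with earlier results of these data known. Named list genes were up to 3 with an unadjusted p under 0.05, or else the one with the smallest p, plus sod-3, gcs-1, gst-4, wdr-23, aap-1, ist-1 and daf-28. Mtl-1, lys-7, scl-20, sip-1, dod-3, dod-6, aqp-1, sod-5 and dao-3 were named after their values were seen. Likeness was searched among probe sets of 1 gene with a mean above the 25th percentile. The number of arrays limits the precision.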

Additional observations from a re-analysis of the deposited data

How the results depend on the processing

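Over 17 other settings, 0 member probe sets passed the adjusted threshold in any, and their smallest adjusted p was 0.669, with array weights. The count over all probe sets was 6 with values as deposited and 1 each with an intensity trend or array weights, these including ung-1 (adjusted p = 0.0276, 0.0118 and 0.0392), and 0 otherwise. At unadjusted p it was 192 without the dimmest probe sets and 1554 with array weights, against 435, and leaving out single arrays gave 232 to 894. One member reached it with array weights (pdk-1, -0.31) and one without mutant replicate 1 (daf-18, -0.42). Without the dimmest probe sets, 16 of the 25 remained and all 16 had intervals within 2-fold. Only 5 of these 16 had intervals within 1.5-fold. The 15 of the 25 in the main fit included dim probe sets left out here, among them every daf-2 probe set. The counts are thus over different sets and do not measure the effect of this setting alone. Of 25 member values, 13 kept their sign throughout. With mutant replicate 3 and N2 replicate 1 left out, daf-2 172033_x_at was 0.06, skn-1 194169_s_at 0.01, sod-3 -0.54, ist-1 0.12 and gcs-1 0.07. Quantile normalization gave 0.01 for that daf-2 probe set and 0.06 for daf-28. Array weights gave -0.02 for skn-1 174799_at and 0.18 for daf-28. Median centring gave 0.04 for daf-28, 0.03 for ist-1 and 0.03 for gcs-1.

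Leaving out single arrays, log2 fold changes that turned ranged as follows. For daf-2 they ran from -0.14 to 0.01 (172033_x_at) and -0.04 to 0.12 (176986_s_at). For age-1 171838_x_at they ran from -0.05 to 0.24, for akt-1 194058_s_at from -0.13 to 0.30, and for akt-2 from -0.47 to 0.01 (175809_at) and -0.06 to 0.49 (194014_s_at). For sgk-1 they ran from -0.24 to 0.27, for daf-18 188215_at from -0.18 to 0.47 and for daf-16 175678_at from -0.19 to 0.18. For skn-1 they ran from -0.12 to 0.19 (174799_at), -0.01 to 0.32 (188421_at) and -0.23 to 0.03 (194169_s_at). Among list genes they ran from -0.13 to 0.15 for daf-28, -0.10 to 0.24 for aap-1, -0.24 to 0.29 for ist-1, -0.32 to 0.95 for sod-3 and -0.11 to 0.07 for gcs-1. In every case the cause was not tested.

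The labels do not say whether replicate numbers pair the samples. Same-numbered arrays had correlations of -0.187, 0.090 and 0.104 of their deviations from the group means. Between arrays of different numbers the correlations ran from -0.209 to 0.114. With so few arrays these values cannot decide whether the samples were paired. With the number as a replicate block, 0 probe sets passed, and 323 had an unadjusted p under 0.05. The replicate block left 23 of the 25 member intervals within 2-fold.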
